A study of Homo sapiens with 6 samples.

Results

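CEBPB is a basic leucine zipper transcription factor whose binding to chromatin was profiled by chromatin immunoprecipitation and sequencing (ChIP-seq) in Calu-3, a bronchial epithelial line derived from a lung adenocarcinoma. The weaker CEBPB peaks were examined here, namely those in the lower 50% of the deposited list by signal and outside every listed KLF5 peak. They numbered 34968 of the 69386 CEBPB peaks, and the set they were compared with was the 33194 higher-signal peaks that also overlapped no KLF5 peak. The members were selected on the authors' signal value in the 7th column of the list and on overlap of at least 1 bp with either KLF5 list. Signal, p-value, q-value and both overlap with and distance to KLF5 are therefore described without a test.

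The CEBPB list was made from 2 samples of untreated Calu-3 cells, both precipitated with the same commercial CEBPB antibody from Santa Cruz. The 2 KLF5 lists came from 2 untreated samples each. The list of 16HBE14o-, an immortalised bronchial epithelial line, held 3262 peaks from 1 commercial KLF5 antibody. The Calu-3 list held 1510 peaks from that antibody in 1 sample and a rabbit anti-KLF5 antibody in the other. KLF5 lists served here to set peaks aside and to measure distances. All cells were grown in DMEM with 10% FBS. Because both samples went into each list, no value below carries an error between samples, and intervals cover counting error alone. The labels do not say whether the samples were separate cultures, and all CEBPB values come from 1 cell line. Positions are on hg19, per the submitters' processing notes, with no gene assigned.

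CEBPB binds DNA as a dimer with itself or with related leucine zipper proteins. In epithelial cells and macrophages it is known for driving inflammatory, acute-phase and differentiation genes. The height of a ChIP-seq peak depends on occupancy, on how many cells hold the site bound, on how many copies of the region a genome carries and on the local background. A weak peak in a pooled list can thus stand for several different situations.

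Lower-signal peaks also had low medians by the other deposited measures. Their signal ran from 1.25 to 3.17 with a median of 2.78, against 3.18 to 61.3 with a median of 3.86 for the higher-signal peaks. Their median −log10 p was 3.39, against 5.34. A q-value of 0.05 or less was reached by 1602 of them (4.58%, exact 95% interval 4.36 to 4.81), against 29563 higher-signal peaks (89.1%, 88.7 to 89.4). Another 3193 lower-signal peaks (9.13%) had a q-value above 0.5, against 0 higher-signal peaks (exact upper limit 0.0111%). The submitters' name for the list refers to irreproducible discovery rate (IDR) filtering, and its lowest −log10 p was 2.01. IDR values were not used here.

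The boundary between the sets fell inside a block of identical values. The 69386 peaks took only 5443 different signal values, and 4384 of them shared the value 3.17476, with an average rank at percentile 47.7. All of these counted as lower-signal, so that the lower part was 50.9% of the list. With KLF5 sites set aside, 4371 members (12.5%) sat exactly at the boundary. Just inside it, 3 peaks had a signal of 3.17459 and 14 a signal of 3.17446, and just outside it 1 peak each had 3.17549, 3.17604 and 3.17666.

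KLF5 overlap removed few peaks and more of the strong ones. Of the 35299 peaks of lower signal, 331 (0.938%) overlapped KLF5, of which 58 met a Calu-3 KLF5 peak alone, 238 a 16HBE14o- KLF5 peak alone and 35 both. Of the 34087 peaks of higher signal, 893 (2.62%) were removed, 454 of them for a Calu-3 KLF5 peak alone and 335 for a 16HBE14o- KLF5 peak alone. Most of the removed weak peaks thus lay at KLF5 sites called in the other line, whereas most of the removed strong peaks lay at KLF5 sites of Calu-3.

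The repeated values had a regular form. For all 69386 peaks, signal and p-value together were matched by a whole count n and a background b, with the signal equal to n plus 1 divided by b plus 1, and p the Poisson probability of a count above n at mean b. The largest mismatch in −log10 p was 0.000198. The relation was inferred from the values and is not a statement of the submitters. It gives each peak an implied count, read here as the number of fragments stacked at its summit, and an implied background, read as the count set against it. Both are parts of the value that chose the members and are described without a test.

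Most lower-signal peaks had a small implied count. Its median was 7 with a 5th to 95th percentile of 6 to 13, against a median of 10 and a 5th to 95th percentile of 8 to 36 for the higher-signal peaks. An implied count of 7 was the most common, with 12631 members (36.1%), and counts of 6 (6601 members) and 8 (5271 members) followed. In all, 19910 members (56.9%) had a count of 7 or below. No higher-signal peak did, because a count of 7 over the lowest background, 1.52, gives exactly the boundary value of 3.17.

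A smaller part of the lower-signal peaks had large counts. A count of 10 or more was implied for 6807 of them (19.5%, 19.1 to 19.9), against 19967 higher-signal peaks (60.2%, 59.6 to 60.7). At any given count, the boundary signal places lower-signal peaks over higher backgrounds than higher-signal peaks. The direction of the differences in background below therefore follows from the choice of members. At counts of 10 to 14 the median background was 3.29 in lower-signal and 2.10 in higher-signal peaks. At counts of 15 to 29 it was 5.33 against 2.63, and at 30 or more it was 32.1 for 150 members against 3.16 for 2655 higher-signal peaks. The lower-signal peaks thus ran from small counts over low backgrounds to large counts over high backgrounds. Median background over all members was 2.05, against 1.89 in higher-signal peaks, and 7544 members (21.6%) sat at the lowest value, as did 7026 higher-signal peaks (21.2%).

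**Figure D1:**
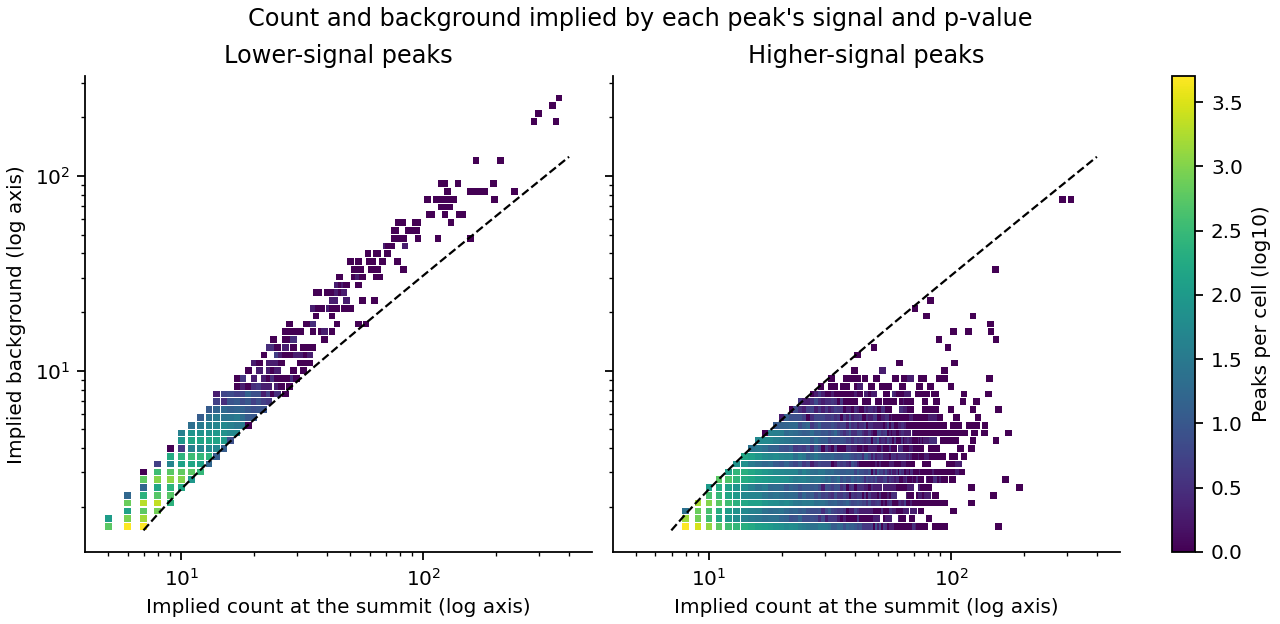
Implied count at the summit (horizontal, log axis) against implied background (vertical, log axis), with colour for the number of peaks per cell on a log10 scale. The dashed line is the boundary signal of 3.17: it starts at a count of 7 over the lowest background of 1.52. Before rounding, lower-signal peaks lie on or above it, up to a count of 364 over a background of 257, and higher-signal peaks lie below it. Backgrounds are drawn rounded to steps of the log axis, so some cells beside the line appear on its other side.

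The members with the lowest signal lay beside centromeres or the heterochromatin blocks next to them. These places are taken from general knowledge of hg19, as no annotation was used. The lowest, on chromosome 16 at 46427439 to 46427615, had a signal of 1.25 with an implied count of 119 over a background of 94.7. Next came chromosome 16 at 46392944 to 46393157 with a signal of 1.32 and a count of 79, and chromosome 18 at 18512179 to 18512409 with a signal of 1.33 and a count of 123. Chromosome 16 at 46417141 to 46417283 (signal 1.34, count 104) and chromosome 10 at 42383586 to 42383719 (signal 1.37, count 82) completed the 5. Repeat content at these positions was not examined. The lowest −log10 p of the list was 2.01, which a signal this low reaches only with a large count over a large background. Their counts of 79 to 123, against a median of 7 over all members, thus follow from choosing the lowest signal.

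A background above 10 was implied for 188 members (0.538%, 0.464 to 0.620), against 18 higher-signal peaks (0.0542%, 0.0321 to 0.0857). The 5 Mb bin with the most of these 188 was not at a centromere. It was the bin from 35 to 40 Mb of chromosome 17, singled out after its values were seen. It held 34 of them among 45 peaks of such background, spread between 36405161 and 39010792, with a median count of 76 and a median background of 17.4. The share of lower-signal peaks in this bin, 58 of 96 (60.4%, 49.9 to 70.3), did not pass the threshold (Fisher's exact test, adjusted p = 0.268). Chromosome Y between 10 and 15 Mb held 17 and chromosome 10 between 40 and 45 Mb held 14.

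Across the genome, lower-signal and higher-signal peaks were divided unequally among chromosomes. The share of each set on each chromosome was compared with a two-sided Fisher's exact test, adjusted by the Benjamini-Hochberg method over 24 chromosomes at a threshold of 0.05. Position did not enter the choice of members. Peaks are not replicates and neighbours are not independent, so these p-values compare 2 sets of peaks of 1 list, are too small, and say nothing of how another culture would behave. Shares within a set also have a fixed total. Lower-signal peaks held the higher share on 7 of 24 chromosomes (29.2%) and the lower share on 8 (33.3%).

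Chromosome 3 stood out among the 7. It held 4136 lower-signal peaks (11.8%, 11.5 to 12.2) and 3218 higher-signal peaks (9.69%, 9.38 to 10.02), a difference of 2.13 points (interval 1.67 to 2.60, adjusted p = 3.12e-18 by Fisher's exact test). Chromosome 8 followed with 5.33% against 4.56%, a difference of 0.769 points (adjusted p = 1.42e-05, Fisher's exact test). Chromosome 5 had 9.48% against 8.74%, chromosome 7 had 6.80% against 6.16%, chromosome 20 had 2.56% against 1.97% and chromosome 19 had 3.05% against 2.62%. Chromosome Y held 39 lower-signal and 7 higher-signal peaks. On chromosome 20, 57.7% of the KLF5-free CEBPB peaks were lower-signal and on chromosome 3 56.2%, against 51.3% in the whole genome.

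Chromosomes 6 and 1 were the furthest in the other direction. Chromosome 6 held 912 lower-signal peaks (2.61%, 2.44 to 2.78) and 1289 higher-signal peaks (3.88%, 3.68 to 4.10), a difference of -1.28 points (interval -1.54 to -1.01, adjusted p = 1.14e-19 by Fisher's exact test). Chromosome 1 had 6.28% against 7.44%, a difference of -1.16 points (adjusted p = 1.78e-08, Fisher's exact test). The others of the 8 were chromosomes 4, 12, X, 13, 9 and 15, with differences between -0.672 and -0.256 points. In chromosomes 6 and 13 only 41.4% and 41.9% of the peaks were lower-signal. Chromosomes 2, 10, 11, 14, 16, 17, 18, 21 and 22 were not called in either direction.

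**Figure D2:**
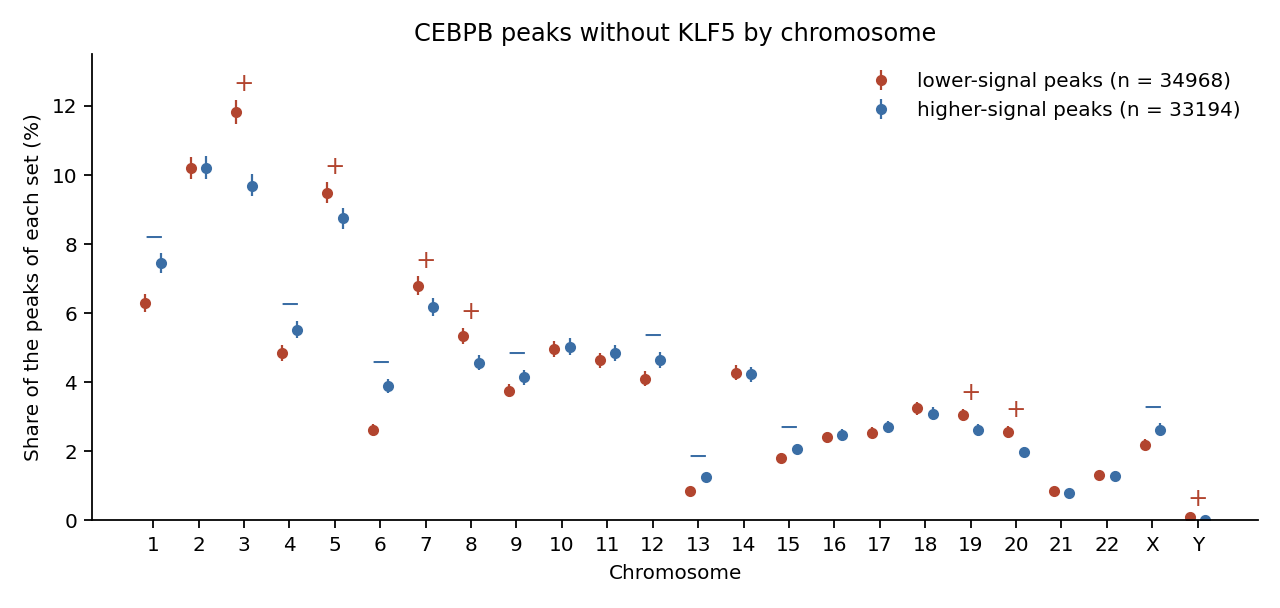
Share of each set on each chromosome in percent, with exact 95% intervals as bars. A plus marks the 7 chromosomes with a higher share of the lower-signal peaks and a minus the 8 with a lower share, after adjustment. Chromosome 3 shows the widest gap, with 11.8% of lower-signal and 9.69% of higher-signal peaks.

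Implied background, a part of the value that chose the members, differed between the called chromosomes, with some overlap. In lower-signal peaks its median ran from 2.10 (chromosome 5) to 12.6 (chromosome Y) on the 7 chromosomes with the higher share, and from 1.52 (chromosome X) to 2.10 (chromosome 15) on the 8 with the lower share. It was 3.16 on chromosome 20, 2.63 on chromosome 3 and 2.57 on chromosome 8, and 1.64 on chromosome 6. On chromosomes 16 and 22, which were not called, it was also 2.10. In higher-signal peaks the median was 2.10 on chromosomes 3, 5, 7, 8 and 19, 2.35 on chromosome Y and 2.74 on chromosome 20. For the 8 chromosomes with the lower share it ran from 1.52 (chromosomes 13 and X) to 2.10 (chromosome 15). The median count of lower-signal peaks was 10 on chromosome 20, 8 on chromosomes 3 and 8, 28 on chromosome Y and 7 on each of the 8 chromosomes with the lower share. The part of background in the chromosome shares was examined only through the rankings that follow.

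The calls depended on the value that ranked the list. Ranked by −log10 p in place of the signal, 94.5% of the members were again in the lower part. Lower-ranked peaks then held the higher share on 4 chromosomes (2, 5, 14 and 18) and the lower share on 5 (1, 4, 6, 13 and X). The difference on chromosome 3 was 0.152 points (Fisher's exact test, adjusted p = 0.635), that on chromosome 8 was -0.0430 and that on chromosome 20 was -0.144, with no call on any of the 3. Ranked by implied count, chromosome 3 held 8.28% of the lower-ranked and 13.1% of the higher-ranked peaks, a difference of -4.78 points, and chromosomes 5, 7, 8, 19, 20 and Y also had negative differences. Chromosomes 1, 4, 9, 12, 13 and X changed to positive differences by the same ranking. Among peaks at the lowest background alone, where signal and count give the same order, chromosome 3 differed by 0.307 points (Fisher's exact test, adjusted p = 0.664). Chromosome 6 had a negative difference under all of these rankings, at -0.198 points by implied count, where it was not called, and at -1.07 points at the lowest background (Fisher's exact test, adjusted p = 0.0209).

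**Figure D3:**
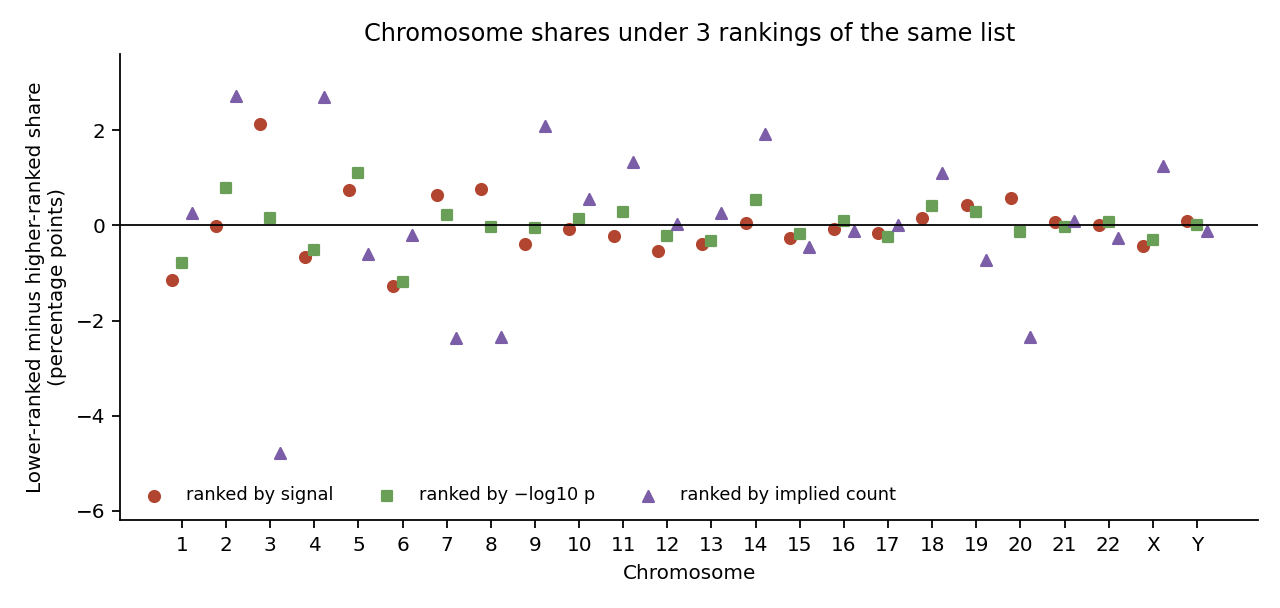
Difference in chromosome share between lower-ranked and higher-ranked peaks in percentage points, for the same CEBPB list ranked by signal (circles), −log10 p (squares) and implied count (triangles). On chromosome 3 the values are 2.13, 0.152 and -4.78 points, and on chromosome 20 they are 0.586, -0.144 and -2.35.

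On a finer scale, the same test was run over 602 bins of 5 Mb that held a KLF5-free CEBPB peak. Lower-signal peaks occurred in 594 of them and higher-signal peaks in 599, with medians of 55 and 58 peaks per bin. Lower-signal peaks held the higher share in 28 bins (4.65% of those tested) and the lower share in 25 (4.15%). The 28 bins held 9.22% of lower-signal and 5.04% of higher-signal peaks, and the 25 held 1.58% and 3.71%. Most of the 28 calls were lost under another ranking. By −log10 p, 24 bins were higher, of which 5 were among the 28, and 28 were lower, of which 20 were among the 25. By −log10 q, 22 were higher, with 5 of the 28, and 24 lower, with 16 of the 25. By implied count, 160 were higher, with 3 of the 28, and 109 lower, with 8 of the 25. Among the peaks at the lowest implied background alone, 0 of 562 bins passed in either direction (Fisher's exact test with Benjamini-Hochberg adjustment), 49 of them had an unadjusted p under 0.05, and the median bin held 24 peaks.

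Ranked by signal, the 5 called bins with the largest excess were on chromosomes 3 and 8, of which neither was called as a whole by −log10 p. Excess here is the difference between the bin's shares of the 2 sets, which favours bins with many peaks. Chromosome 3 from 180 to 185 Mb held 164 lower-signal and 72 higher-signal peaks (69.5% lower-signal, Fisher's exact test, adjusted p = 4.48e-06). The bin from 175 to 180 Mb held 200 and 109, and that from 155 to 160 Mb held 169 and 84. Chromosome 8 held 162 and 79 between 135 and 140 Mb and 143 and 62 between 30 and 35 Mb. Altogether 7 of the 28 bins were on chromosome 3, all at or beyond 130 Mb, 6 were on chromosome 8 and 3 on chromosome 20, all by the ranking on signal. The median background in these 5 bins was between 2.63 and 4.47, whereas over all 549 bins without a call the median was 1.71. Outside the 5, chromosome 20 from 60 to 65 Mb held 116 and 40 (74.4% lower-signal). Its adjusted p was the smallest of the 28 bins (2.65e-06, Fisher's exact test).

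Some called bins at chromosome ends or centromeres held few strong peaks. Chromosome Y from 10 to 15 Mb held 21 lower-signal and 0 higher-signal peaks, with an exact interval of 83.9 to 100% for the lower-signal share. Chromosome 2 from 90 to 95 Mb held 20 and 4, chromosome 4 from 190 to 195 Mb held 46 and 11, and chromosome 21 from 10 to 15 Mb held 74 and 20. Of the 28 bins, 6 were the first or last occupied bin of their chromosome, as were 48 of all 602. Of the 25 bins with the lower share, 1 was.

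By the same difference in shares, the 5 bins with the largest deficit were smaller and spread over other chromosomes. Chromosome 6 from 0 to 5 Mb held 45 lower-signal and 89 higher-signal peaks (33.6% lower-signal, Fisher's exact test, adjusted p = 0.00165). Chromosome 4 from 70 to 75 Mb held 21 and 61, and chromosome 6 from 135 to 140 Mb held 25 and 63. Chromosome 9 from 90 to 95 Mb held 34 and 70, and chromosome 10 from 90 to 95 Mb held 24 and 58. In these 5 bins the median background was 1.58 and the higher-signal peaks had median counts of 11 or 12. Of the 25 bins 8 were on chromosome 6.

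Bins crowded with CEBPB peaks were richer in weak ones. In the 61 bins with the most KLF5-free peaks (189 or more), 7827 of 13792 peaks were lower-signal (56.8%, 55.9 to 57.6). In the 61 bins with the fewest (up to 33), 454 of 1012 were (44.9%, 41.8 to 48.0). Over the 563 bins with 20 or more peaks, the number of peaks and the lower-signal share had a Spearman rho of 0.39 and a Pearson r of 0.33. The number of peaks counts the lower-signal peaks themselves, so the 2 values are not independent and part of the relation can follow from this. Median background and the lower-signal share had a Spearman rho of 0.24 and a Pearson r of 0.39. These bins share 1 pair of samples, and signal, background and peak number all come from the same libraries. The 61 bins with the highest median background, 2.63 or more, had 59.4% lower-signal peaks (58.4 to 60.4), while the other 9 classes of bins by background had between 47.2% and 52.9%. Background and crowding moved together, with a median background of 2.10 in the 61 most crowded bins and 1.52 in the 61 least crowded, and the part of background in this relation was not tested. Ranked by implied count, the share of lower-ranked peaks in the 61 crowded bins was 39.9%. By that ranking 32350 of all 68162 KLF5-free peaks were lower-ranked, against 34968 by signal.

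**Figure D4:**
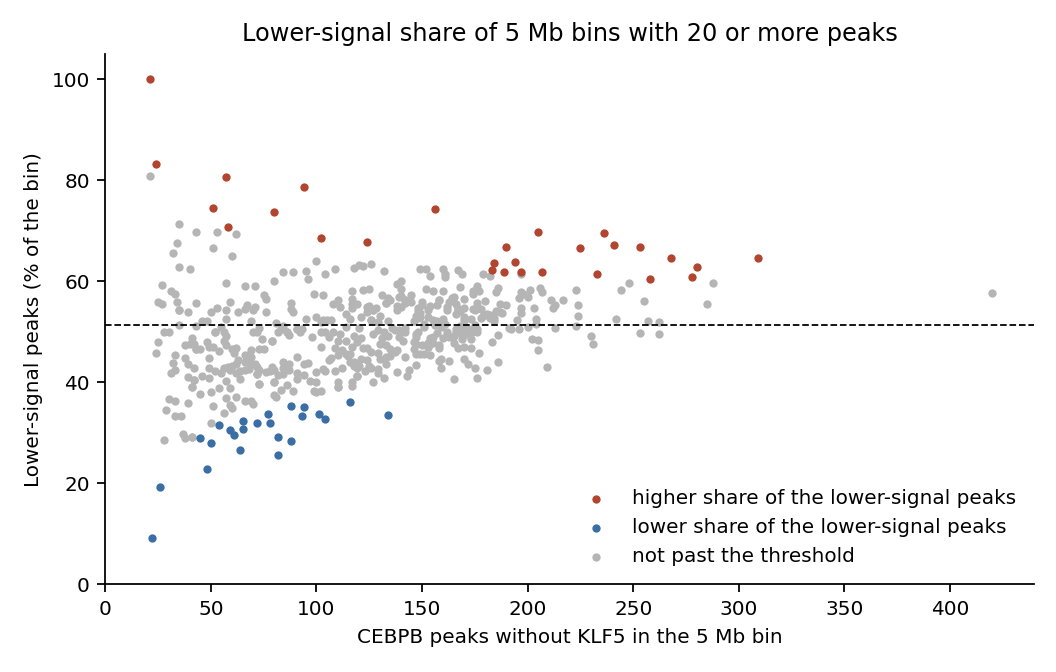
Each point is a 5 Mb bin with 20 or more KLF5-free CEBPB peaks, placed by its number of peaks (horizontal) and the percentage that were lower-signal (vertical). The dashed line is the genome-wide 51.3%; red points passed the threshold above it and blue points below it. A bin of 15 peaks that also passed is not drawn.

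The bin with most members was chromosome 5 from 0 to 5 Mb, with 242 lower-signal and 178 higher-signal peaks. Its share of lower-signal peaks, 57.6% (52.7 to 62.4), did not pass the threshold (Fisher's exact test, adjusted p = 0.0756). Median counts there were 7 and 9, and median backgrounds 1.91 and 1.78, whereas the bin of chromosome 3 with most members, from 175 to 180 Mb, had median counts of 11 and 15.

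Lower-signal peaks were narrow. Their median width was 137 bp, with an interquartile range of 125 to 172 bp, against 167 bp (134 to 218 bp) for higher-signal peaks. The list had a minimum width of 125 bp, at which 13719 members (39.2%, 38.7 to 39.7) and 5394 higher-signal peaks (16.2%, 15.9 to 16.7) stood. Widths of 250 bp or more were found for 1324 members (3.79%) and 4967 higher-signal peaks (exact interval 14.6 to 15.4%). Width comes from the same peak call as the signal, so this is a description.

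At equal counts the difference in width depended on the count. At an implied count of 8 the median width was 140 bp in 5271 lower-signal and 136 bp in 7169 higher-signal peaks. At a count of 9 it was 144 bp against 143 bp. At a count of 12, by contrast, it was 148 bp in lower-signal and 166 bp in higher-signal peaks. In the class of 15 to 29 it was 166 bp against 214 bp. Counts were not equal in that class, with medians of 17 and 19. Summits within 25 bp of the middle of the peak were found in 52.4% of lower-signal and 70.4% of higher-signal peaks.

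Of the 5 widest members 3 lay near centromeres or the heterochromatin blocks next to them. The widest was 1086 bp, on chromosome 1 at 121484385 to 121485470 beside the centromere, with an implied count of 353 and a −log10 p of 26.0. Another, of 769 bp, was on chromosome 1 at 142538248 to 142539016, at the far side of the heterochromatin block and not at the centromere itself. A peak of 598 bp lay near the centromere of chromosome 21 at 11115914 to 11116511. Away from centromeres, chromosome 6 had a peak of 786 bp at 12332228 to 12333013 with a count of 12, and chromosome 3 had a peak of 688 bp at 149688354 to 149689041 with a count of 18. These had counts below 20 over backgrounds of 3.16 and 5.26.

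**Figure D5:**
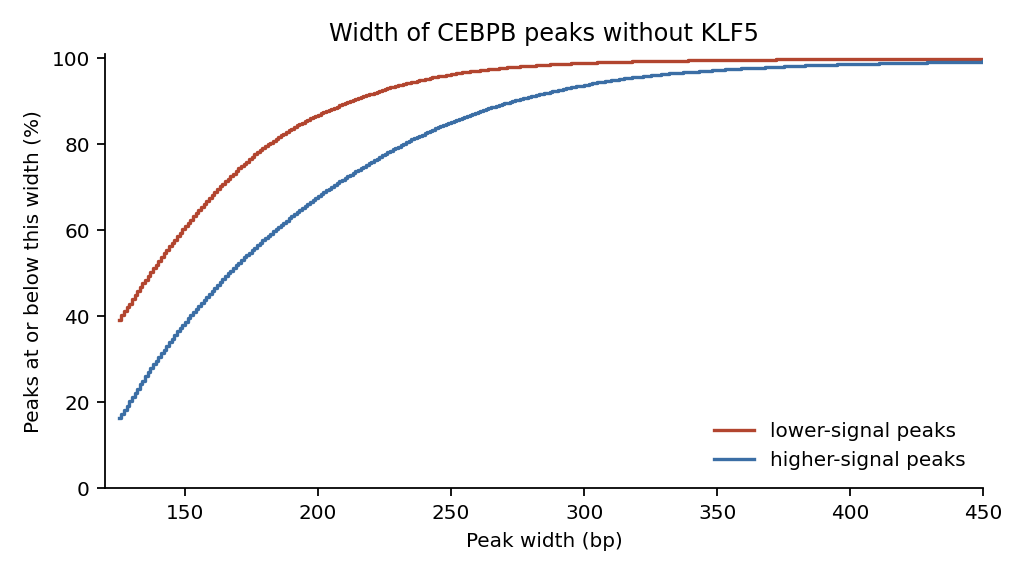
Percentage of peaks (vertical) at or below each width in bp (horizontal), for lower-signal and higher-signal KLF5-free CEBPB peaks. Both curves start at the minimum width of 125 bp, where 39.2% of the lower-signal and 16.2% of the higher-signal peaks stand.

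Ranked by signal, weak and strong peaks differed little in spacing. Weak peaks less often had a neighbour within 1, 5, 10 or 25 kb and slightly more often within 100 kb. The nearest other KLF5-free CEBPB peak was at a median of 10383 bp from a lower-signal peak and 10149 bp from a higher-signal peak. A neighbour within 10 kb was present for 17119 lower-signal peaks (49.0%, 48.4 to 49.5) and 16450 higher-signal peaks (49.6%, 49.0 to 50.1). The difference of -0.601 points (Newcombe interval -1.35 to 0.150) did not pass the threshold (Fisher's exact test, adjusted p = 0.118 over 4 shares). It did pass when the list was ranked by −log10 p, at -1.67 points (Fisher's exact test, adjusted p = 1.30e-05), and was 0.698 points in the other direction without the peaks tied at the boundary (adjusted p = 0.104 by Fisher's exact test). Between the lowest and highest 40% of the list it was 0.885 points (adjusted p = 0.0387 by Fisher's exact test). Between the lowest and highest 25%, and by implied count, the difference was negative and larger, as given in the closing section. At shorter range the values were 9.36% and 10.7% within 1 kb, and 30.3% and 32.1% within 5 kb. The difference at 5 kb, -1.83 points, passed (Fisher's exact test, adjusted p = 3.42e-07). At 25 kb it was -0.283 points (interval -0.918 to 0.352). At 100 kb, where 98.1% and 97.9% had a neighbour, it was 0.206 points in the other direction (Fisher's exact test, adjusted p = 0.0542).

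Peaks chained together with gaps of up to 10 kb formed 4312 groups of 3 or more. Of the lower-signal peaks 7942 (22.7%, 22.3 to 23.2) were in such groups, against 7739 higher-signal peaks (23.3%, 22.9 to 23.8), a difference of -0.602 points (interval -1.23 to 0.0298, adjusted p = 0.0827 by Fisher's exact test). This difference likewise turned, to 0.780 points, between the lowest and highest 40% (adjusted p = 0.0235 by Fisher's exact test), and was -1.58 points by −log10 p (adjusted p = 1.24e-06). The groups were mixed. Both kinds of peak were present in 3234 of them, lower-signal peaks alone in 520 and higher-signal peaks alone in 558. In groups of 6 or more, 1201 of 2137 peaks (56.2%) were lower-signal. The share did not rise steadily with size, at 51.6% for single peaks, 51.3% for pairs, 49.4% in groups of 3, 51.0% in groups of 4 and 49.3% in groups of 5.

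The kind of the nearest neighbour differed between the sets. The nearest neighbour of a lower-signal peak was itself lower-signal in 18833 of 34968 cases (53.9%, 53.3 to 54.4). The nearest neighbour of a higher-signal peak was lower-signal in 15823 of 33194 (47.7%, 47.1 to 48.2), and lower-signal peaks had the higher value on 24 of 24 chromosomes. The mean lower-signal share of a peak's own 5 Mb bin, which counts the peak itself, was 52.6% for lower-signal and 49.9% for higher-signal peaks. The gap between the sets, 6.19 points, was 2.41 points among peaks at the lowest background, 7.24 points by −log10 p and 25.1 points by implied count. No test was made, because signal chose the members.

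The groups with the most members were beside centromeres or chromosome ends. Chromosome 21 at 10701133 to 10796595 held 39 peaks, 34 of them lower-signal, and a second group at 10807083 to 10856214 held 29, of which 26 were lower-signal. Chromosome Y at 58975400 to 59012073 had 16 lower-signal peaks of 20, and chromosome 2 at 89833770 to 89879333 had 14 of 19. Chromosome 4 at 190606863 to 190646056 had 12 of 12, as many members as chromosome 8 at 43486021 to 43529633, which had 12 of 17. Median backgrounds in the first 5 groups ran from 3.65 to 7.30, and in the group on chromosome 8 the median was 1.75. Higher-signal peaks in these 6 groups numbered between 0 and 5 per group. The first 5 groups were chosen for their number of lower-signal peaks, so high shares of these follow in part from the choice. In all groups of 6 or more, 56.2% of the peaks were lower-signal.

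KLF5 sites were rarer near weak CEBPB peaks than near strong ones, even with overlapping peaks set aside in both sets. Overlap with the same lists was part of the choice of members, so these shares are described without a test. A Calu-3 KLF5 peak lay within 10 kb of 470 lower-signal peaks (1.34%, 1.23 to 1.47), against 623 higher-signal peaks (1.88%, 1.73 to 2.03). The gap was -0.533 points (interval -0.723 to -0.344), with the same sign on 21 of 24 chromosomes. It was -1.85 points with KLF5 sites kept, -1.004 by −log10 p, -1.96 by implied count and -0.345 at the lowest background. A 16HBE14o- KLF5 peak lay within 10 kb of 823 lower-signal peaks (2.35%, 2.20 to 2.52) and of 1042 higher-signal peaks (3.14%, 2.95 to 3.33). For that list the difference came to -0.786 points (interval -1.03 to -0.540), again on 21 of 24 chromosomes. It was -1.36 points with KLF5 sites kept, -1.25 by −log10 p, -2.51 by implied count and -0.723 at the lowest background.

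Within the lower-signal peaks, closeness to KLF5 differed with count and background, as described without a test. By signal, a Calu-3 KLF5 peak lay within 10 kb of 1.65% of the lowest 25% of members and of 0.640% of the highest 25%. By implied count, the share was 0.499% at 7, 3.68% at 10 to 14 and 7.41% at 15 to 29. It was 0.667% in the 150 members with a count of 30 or more. By background it was 0.239% at the lowest value, 7.60% at 5 to 10 and 1.06% in the 188 members above 10. For 16HBE14o- KLF5 it was 1.23% at a count of 7, 8.19% at 15 to 29 and 3.33% at 30 or more. Above a background of 10 the share for 16HBE14o- KLF5 was 3.72%. The members of lowest signal were thus not the ones with the fewest KLF5 sites nearby, but signal and background were not separated here.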

How the data were processed

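The authors deposited 1 peak list per group, pooling its 2 samples per the series' design text, with hg19 as the build per the submitters' processing notes. Peak caller, aligner, filters, control and depth are not given in the sources used here. Every peak came with the authors' deposited signal value, whose normalization was not stated, a −log10 p-value and −log10 q-value for CEBPB, and a score, which in the CEBPB list was the whole part of 10 times the −log10 p-value per its values.

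Peaks were ranked by signal with average ranks within the CEBPB list. Gaps are bases between peak edges, bins were assigned by peak midpoint, and neighbours were sought among KLF5-free peaks. The implied count was searched up to 600 within 0.001 in −log10 p, and 17 peaks had more than 1 match, 0 of them lower-signal. Intervals of shares are exact (Clopper-Pearson) and of differences Newcombe's, at 95%. The 4 shares by distance or grouping were adjusted together, and the p-values of the 2 KLF5 shares are not reported because the choice of members used those lists. The members, lists, tests and named regions (called chromosomes, 5 bins each way, 5 members by lowest signal and by width, 5 groups with most members, values at the boundary) were chosen with earlier results of these data known. The ranking by implied count, the limits on background and the removal of tied peaks were added after the values were seen. No hg19 sequence or annotation was used, so no sequence is printed. Python 3.11.15, numpy 2.4.6, pandas 2.3.3, scipy 1.17.1, statsmodels 0.14.6 and matplotlib 3.10.9 were used. The test of bins and the search for the implied count were checked on simulated data. The simulated peaks were independent, unlike neighbouring peaks here, and the tests of shares by distance or grouping were not simulated.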

Additional observations from a re-analysis of the deposited data

How the results depend on the processing

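No paired analysis was possible because every list pools its 2 samples, and for the same reason leaving out a sample was not possible. Read counts were not analysed, so depth sets an unknown limit. The difference in KLF5 proximity, described without a test, kept its direction for both KLF5 lists under every alternative run, while its size ran from -1.96 to -0.345 points for Calu-3 KLF5 and from -2.51 to -0.518 for 16HBE14o- KLF5. The cause was not tested for the changes below.

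Ranked by −log10 p, 4 chromosomes were higher and 5 lower, a neighbour within 10 kb differed by -1.67 points and membership of groups by -1.58, the nearest-neighbour gap was 7.24 points and the crowded bins had 53.1% lower-ranked peaks. By −log10 q these values were 4, 5, -1.74, -1.62, 7.18 and 52.9%. Of all 68162 KLF5-free peaks, 34370 were lower-ranked by p and 34254 by q. Chromosomes 8 and 20 turned to -0.0430 and -0.144 points by p and to -0.0386 and -0.146 by q.

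With the lowest and highest 40%, 67 bins were higher and 111 lower, neighbours reversed to 0.885 points and groups to 0.780, the nearest-neighbour gap was 10.03 and the crowded bins had 59.4%. With 25% they were 58 and 56, the median width differed by -61 bp, and the other values were -3.87, -1.62, 14.9 and 61.1%. With KLF5 sites kept, neighbours and groups differed by -0.932 and -0.850 points. Without chromosome 3 they differed by -0.847 and -0.682, and crowded bins had 55.6%. Without the lowest 10% the values were -1.55, -1.43, a gap of 6.96 and 55.0% (54.9992). At 5 kb neighbours and groups differed by -1.83 and -0.733, at 25 kb groups reversed to 0.585, and at 100 kb both reversed, to 0.206 and 0.575. With neighbours from the whole list they were -0.902 and -0.794. Bonferroni adjustment left 13 higher and 7 lower bins.

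The next settings were chosen after seeing the data. By implied count, 160 bins were higher and 109 lower, neighbours and groups differed by -6.10 and -5.04, the gap was 25.1 and the crowded bins reversed to 39.9%. Chromosomes reversed to 0.265 (1), -4.78 (3), 2.69 (4), -0.604 (5), -2.36 (7), -2.35 (8), 2.09 (9), 0.0328 (12), 0.268 (13), -0.725 (19), -2.35 (20), 1.25 (X) and -0.123 (Y) points. At the lowest background alone, 2 chromosomes were higher and 3 lower, 0 bins were higher and 0 lower, neighbours and groups reversed to 0.530 and 0.322, the gap was 2.41 and crowded bins had 54.4%. Among all peaks at that background 51.8% were lower-signal. Chromosomes 15, 20 and Y reversed to 0.0185, -0.307 and -0.0285. With backgrounds up to 5, neighbours and groups differed by -0.765 and -0.992, and chromosome Y reversed to -0.000778. Without the tied boundary value, 48 bins were higher and 46 lower, neighbours and groups reversed to 0.698 and 0.298, and crowded bins had 55.2%.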
